A study of Arabidopsis thaliana with 12 samples.

Results

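The comparison described here is that of ribo-minus RNA with poly(A)+ RNA in Arabidopsis thaliana seedlings in which RNA interference against RRP41 had been induced. All libraries came from the inducible RNA interference line RRP41-iRNAi, harvested at 7 days. The induced ribo-minus group and the induced poly(A)+ group were germinated and grown on estradiol, and each held 3 biological replicates, so the comparison uses 6 of the 12 libraries. The uninduced ribo-minus and uninduced poly(A)+ groups of the same line, grown without induction, again held 3 replicates each and enter where stated. Every group carries the construct. Estradiol was given to all induced seedlings, so effects of the hormone, of the construct and of losing RRP41 cannot be told apart. The RNA was read out over putative enhancers, each given as a window of 3000 bp with a value for each strand. Of 1919 windows, 1916 were used, or 3832 strands of windows, and 2102 strands in 1657 windows passed a filter on low values.

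RRP41 is a core subunit of the RNA exosome, which trims and degrades RNA from its 3′ end, and many nuclear noncoding RNAs pass through it. Poly(A)+ libraries keep RNA with a poly(A) tail, as most messenger RNA has. Ribo-minus libraries only have ribosomal RNA removed and so also keep RNA without a tail, such as spliceosomal small nuclear RNAs (snRNAs), small nucleolar RNAs (snoRNAs) and RNA from some enhancers. Each total RNA sample gave a library of both kinds, with a different kit for each, so RNA fraction and preparation kit cannot be told apart.

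The strands with the highest ribo-minus signal relative to poly(A)+ included 3 loci of U2, the snRNA that pairs with the branch point of introns. The annotated copies U2.6, U2.3 and U2.10b/12 have the same first 30 bases, shown because reads from these copies can be hard to assign to a single gene. The stretch is given for U2.6 (TAIR10.1 assembly, RefSeq annotation, chr3:21004493-21004522, plus strand).
U2 RNA, first bases: atacctttctcggccttttggctaagatca
Over 195 bases from the RNA start, U2.3 had 3 mismatches to U2.10b/12 (98.5% identity) and U2.6 had 8 (95.9%). Upstream of each copy lies TCCCACATCG (capitals), the longest run shared by the 100 bases upstream of the 8 snRNA genes in the tested windows. It is part of the element known in plants as the upstream sequence element of snRNA genes. It is shown for the 3 U2 copies, whose strands were higher in ribo-minus libraries, and for U6.6, whose strand was lower.
U2.6 upstream, chr3:21004406-21004435, plus strand: tttcttaacgTCCCACATCGacaagttaga
U2.3 upstream, chr3:21397676-21397705, minus strand: atgagtaaagTCCCACATCGacaagttaga
U2.10b/12 upstream, chr2:852773-852802, plus strand: tttggtattgTCCCACATCGctaaataatt
U6.6 upstream, chr4:16754756-16754785, plus strand: caataaaaagTCCCACATCGattacgtgaa
The element began 77 bases before the RNA start in all 3 U2 copies. The RNA start of U2.6 and U2.3 lies inside the annotated gene, so there the element is upstream of the RNA and not of the gene. Counted instead from annotated gene starts and searched on both strands, TCCCACATCG lay within 100 bases upstream of 70 of 37899 annotated genes (0.185%). On the gene's own strand it lay there in 29 of 82 snRNA genes (35.4%) and in 8 of 27444 protein-coding genes (0.0292%). The element was chosen because the snRNA genes in the tested windows share it. Its presence at the higher strands and at the lower strand followed from that choice, so whether it separates them was not tested.

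Values were a deposited signal in whole numbers, not read counts, and read numbers are unknown. The smallest value above 0 was 776, 107 and 178 in the induced ribo-minus libraries and 450, 181 and 216 in the induced poly(A)+ libraries. Because these differ, every value below the highest such smallest value among the 12 libraries was raised to it. That value is called the floor, and a strand was tested if it exceeded the floor in at least 3 of the 6 libraries. Without 3 windows that were left out, total signal was 19606270 to 23770709 in induced ribo-minus libraries and 54660059 to 57182302 in induced poly(A)+ libraries. Those 3 windows held 24.4% to 34.3% of all signal in the induced ribo-minus libraries and 0.393% to 2.70% in the induced poly(A)+ libraries. Uninduced ribo-minus replicate 1 had the same values on both strands in 100% of windows and was left out of strand comparisons. No window held RRP41, so the extent of the knockdown was not measured. Of the organ markers listed, windows held only ESB1 of the root and XCP2 of the vasculature, both with signal above the floor in all 6 libraries; markers of green tissue, stomata, meristem, flower and seed lay in no window.

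On the deposited scale, ribo-minus libraries had the lower signal at most strands. The median log2 ratio was −1.40, so that the typical strand was 2.63-fold higher in poly(A)+ libraries, and 1968 of 2102 strands (93.6%) had a ratio below 0. The libraries carry an unstated scaling, so each strand is given below as a relative log2 ratio, its ribo-minus over poly(A)+ log2 ratio minus that median. A relative ratio of 0 is thus a typical strand, not equal signal. By limma with Benjamini-Hochberg adjustment at 0.05, 442 strands in 383 loci (21.0% of those tested) were higher in ribo-minus libraries and 336 strands in 307 loci (16.0%) were lower, against 988 strands either way at an unadjusted p under 0.05. This fit did not pair libraries from the same total RNA, and with the replicate number as a block 518 strands were higher and 450 lower. Without the shift by the median, 54 strands were higher and 1717 lower.

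The floor bears on the higher calls. Of the 442, 158 had at least 1 ribo-minus value at or below the floor, so that a low poly(A)+ signal and a floor value gave a ratio above the typical one. In the other 284 strands (13.5% of those tested) all 3 ribo-minus values lay above the floor, and 133 strands (6.33%) were called higher with more signal in ribo-minus libraries on the deposited scale too. A separate fit of the 1683 strands above the floor in all 6 libraries was centred on their own median log2 ratio of −1.48. It called 291 (17.3%) higher and 228 (13.5%) lower, of which 257 and 228 were also called in the main fit. By the main fit and its median, lower calls were the more frequent where most of these strands belong. Of 1495 such strands with only protein-coding genes, 222 were higher and 286 lower. Leaving out any single poly(A)+ library took the lower calls from 336 to between 189 and 201. In every fit with 1 library left out, 244 strands remained called higher and 167 called lower. After the floor, the 3 ribo-minus and 3 poly(A)+ values did not overlap in 1782 strands (84.8%), with the offset between the fractions still in the values.

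**Figure D1:**
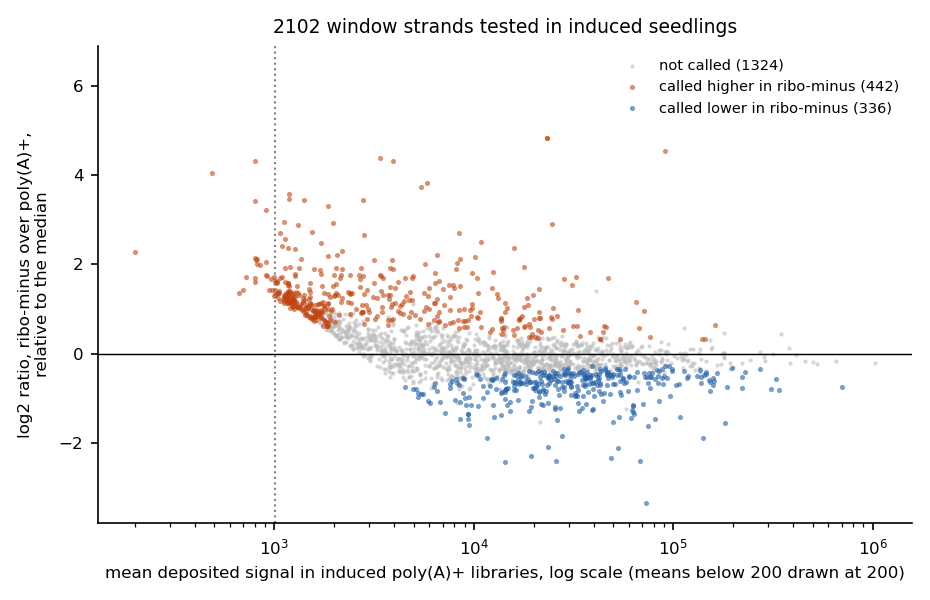
Relative log2 ratio of ribo-minus over poly(A)+ signal (vertical axis) against mean deposited signal in the induced poly(A)+ libraries (horizontal axis, log scale) for the 2102 tested strands, with 442 strands called higher and 336 called lower in colour. The dotted line is the floor; the dense diagonal of higher calls at low poly(A)+ signal holds strands with ribo-minus values at or near the floor, while the strands above a ratio of about 3 stand apart from it.

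Among gene types, snRNA windows stood highest. Of 8 tested strands with an annotated snRNA gene, 6 were higher and 1 was lower, with a median relative ratio of 3.00, against 21.0% and 16.0% over all strands. A pair of overlapping U2.6 windows had identical values, and counted once they left 7 strands with a median of 1.68. On the strand of U2.6 (chromosome 3, 21003183 to 21006182, plus), signal was 230663, 263325 and 205147 in ribo-minus replicates 1 to 3, against 16032, 16328 and 37167 in poly(A)+ replicates 1 to 3. An overlapping window at 21002933 had the same values. Every ribo-minus value was several times every poly(A)+ value, and poly(A)+ replicate 3 was the highest of its group. The mean was 10.1-fold higher in ribo-minus libraries, with a relative log2 ratio of 4.84 ± 0.29 (SE) and a limma adjusted p of 4.44e-06.

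U2.3 (chromosome 3, 21396213 to 21399212, minus strand) had the highest level of the snRNA strands, with 751260, 907579 and 676143 in ribo-minus libraries and 69997, 74191 and 128506 in poly(A)+ libraries. The groups again did not overlap, and the relative log2 ratio was 4.54 ± 0.22 (limma adjusted p = 1.74e-06). The window of AT2G04435 and U2.10b/12 (chromosome 2, 850815 to 853814, plus strand) had 22899, 33263 and 24086 in ribo-minus libraries and 3564, 1812 and 6459 in poly(A)+ libraries. Its relative log2 ratio was 4.32 ± 0.39 (limma adjusted p = 5.47e-05). Because these sequences are nearly identical, the signal of each U2 window may include reads from other copies.

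The remaining snRNA genes shared their strand with protein-coding genes, and their signal cannot be assigned to the snRNA alone. U1 pairs with the 5′ splice site, and U4 and U6 enter the spliceosome together. The window of AT3G05670 and U1.7 had 37820, 30329 and 34174 in ribo-minus libraries and 23164, 25250 and 36954 in poly(A)+ libraries, groups that overlapped on the deposited scale, with a relative log2 ratio of 1.68 ± 0.17 (limma adjusted p = 0.000128). That of EIF3B-2, U1.4 and U4.5 had 19719, 20017 and 16525 in ribo-minus libraries and 19918, 18203 and 21074 in poly(A)+ libraries. Levels were thus about equal in both fractions, which is a relative log2 ratio of 1.32 ± 0.12 (limma adjusted p = 6.00e-05). The window of LBD22 and U6-26 did not pass the test (0.53 ± 0.27, limma adjusted p = 0.156), with 1825, 2274 and 3416 in ribo-minus libraries and 5440, 4086 and 3888 in poly(A)+ libraries. The window of AT4G35220 and U6.6 was lower, with 5280, 4793 and 4138 in ribo-minus libraries and 19257, 17864 and 20652 in poly(A)+ libraries. Its relative log2 ratio of −0.63 ± 0.15 (limma adjusted p = 0.00852) lost the call without poly(A)+ replicate 3 (−0.56, limma adjusted p = 0.0526).

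Of 6 tested strands with a snoRNA gene, 3 were higher and 1 was lower, with a median of 0.54, against 21.0% higher and 16.0% lower over all strands. snoRNAs guide chemical modification of ribosomal RNA. At AT5G06565 and AT5G44286 (chromosome 5, 17838993 to 17841992, plus strand), signal was 7244, 6194 and 6450 in ribo-minus libraries and 3560, 2755 and 2145 in poly(A)+ libraries. The groups did not overlap, and the relative log2 ratio was 2.66 ± 0.22 (limma adjusted p = 3.56e-05). A window shared by AT1G68940, an armadillo repeat gene, and the snoRNA AT1G09027 was also higher, with 44892, 37806 and 38510 in ribo-minus libraries and 31661, 29381 and 36405 in poly(A)+ libraries (1.71 ± 0.12, limma adjusted p = 1.12e-05). The third was the snoRNA window of AT3G03435, where levels overlapped on the deposited scale, at 4491, 5695 and 5639 in ribo-minus libraries and 6868, 4847 and 7331 in poly(A)+ libraries. It was higher in relative terms only (1.14 ± 0.21, limma adjusted p = 0.00273). The window of AT1G60900 and AT1G08353 was lower (−0.87 ± 0.15, limma adjusted p = 0.00183), and those of AT4G30670 (−0.07) and AT1G06890 (−0.19) were not called.

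Windows with microRNA precursors and tRNAs lay near the typical strand. Among 8 miRNA strands the median was −0.19, with 1 higher and 1 lower (12.5% each), against 21.0% and 16.0% over all strands. The higher one, MIR5018, had 1827, 435 and 633 in ribo-minus libraries and 1051, 896 and 1119 in poly(A)+ libraries, so that its ratio of 1.61 ± 0.26 (limma adjusted p = 0.00165) rested on values near the floor. UAH with MIR166f was lower (−0.48 ± 0.12, limma adjusted p = 0.0144), a call lost without poly(A)+ replicate 1 (limma adjusted p = 0.0767) or 3 (0.0707). MIR408, the precursor of a microRNA against copper protein transcripts, missed the threshold (−0.65 ± 0.23, limma adjusted p = 0.0514) and passed it with the replicate number as a block (limma adjusted p = 0.00926) or without ribo-minus replicate 3 (0.0170). SPPL4 with MIR2112 also missed it (0.31, limma adjusted p = 0.0615) and passed under several alternatives, with limma adjusted p of 0.0417 with the block, 0.0142 with a size factor per library and 0.0116 without ribo-minus replicate 1. The other 4 were not called, with ratios of −0.11 for AT2G47010 with MIR408, 0.09 for AT4G24420 with MIR824, −0.26 for AT2G26220 with MIR825 and −0.28 for AT5G41620 with MIR5644.

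Over all tested strands, 21.0% were higher and 16.0% lower. Of 49 strands with a tRNA gene, 4 (8.16%) were higher, only 1 of them with all ribo-minus values above the floor, and 7 (14.3%) were lower, with a median of −0.03. Their ratios ran from −1.14 ± 0.19 at AT1G77030, a DEAD-box helicase gene beside a tRNA (limma adjusted p = 0.00193), to 1.36 ± 0.19 at AT4G03140 (limma adjusted p = 0.000829), whose ribo-minus values of 1035, 606 and 1126 lay near the floor. The strand with all ribo-minus values above the floor held only a tRNA-Leu gene, AT2G36510 (1.29 ± 0.30, limma adjusted p = 0.00867). Of 17 strands with only a long or other noncoding gene, 8 (47.1%) were higher and none was lower, but only 1 of the 8 had all 3 ribo-minus values above the floor. Of 12 pseudogene strands, 2 (16.7%) were higher and 5 (41.7%) were lower.

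**Figure D2:**
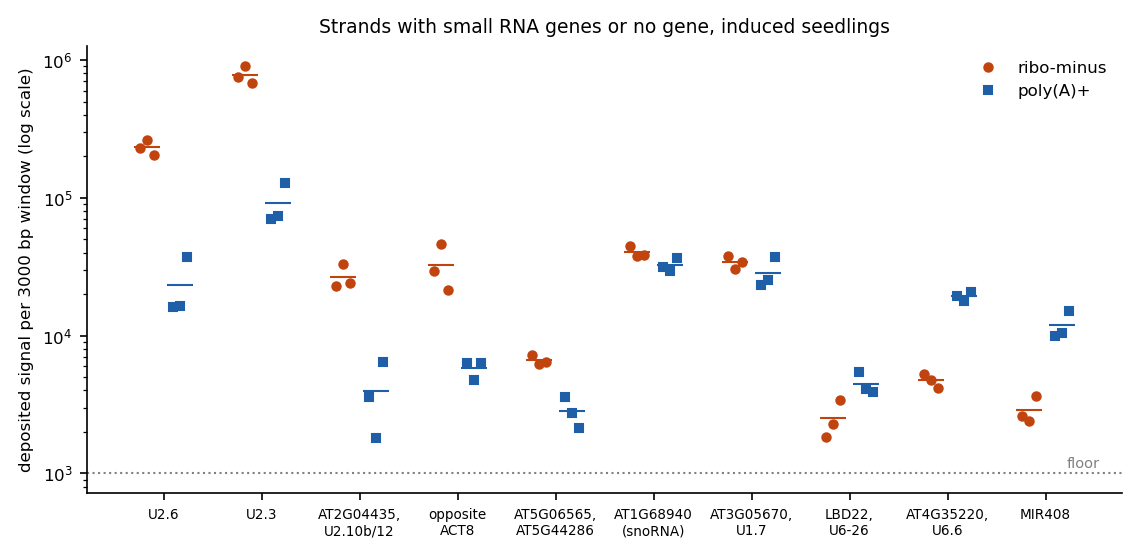
Deposited signal per 3000 bp window (log scale) in each induced library for strands with small RNA genes and for the gene-free strand opposite ACT8, ribo-minus as circles left of poly(A)+ as squares, with bars at the group means. U2.6 and U2.3 lie near or above 205147 in ribo-minus libraries and at or below 128506 in poly(A)+ libraries, while AT4G35220 with U6.6 and MIR408 lie lower in ribo-minus libraries.

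Strands without any annotated gene, opposite a gene, are where RNA specific to a putative enhancer or antisense RNA would be read. Of 72 such strands tested, 39 were higher and 3 were lower, with a median of 0.82, against 21.0% and 16.0% over all strands, but in 33 of the 39 a ribo-minus value lay at or below the floor. Among the 17 that exceeded the floor in all 6 libraries, the median was 0.52 in the main fit, with 6 higher and 1 lower. By the same fit, the 1495 strands with only protein-coding genes above the floor in all 6 had a median of −0.10. Of those, 222 were higher and 286 lower. The 17.3% higher and 13.5% lower of all strands above the floor in all 6 come from the separate fit with its own median. The highest was the strand opposite ACT8, an actin gene (chromosome 1, 18217270 to 18220269, minus strand). Its signal was 29251, 46218 and 21428 in ribo-minus libraries, against 6310, 4759 and 6354 in poly(A)+ libraries. All ribo-minus values exceeded all poly(A)+ values, ribo-minus replicate 2 was the highest, and the relative log2 ratio was 3.81 ± 0.26 (limma adjusted p = 9.29e-06). An overlapping window at 18216663 gave 3.74. The nearest annotated gene upstream on this strand was the snRNA gene U4.4 (18222202 to 18222354), 1933 bp from the window; no TCCCACATCG was found in the 100 bases upstream of that gene.

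Opposite TES, a kinesin gene (chromosome 3, 15189170 to 15192169, minus strand), signal was 6787, 4716 and 5133 in ribo-minus libraries and 3246, 3954 and 4253 in poly(A)+ libraries (1.93 ± 0.21, limma adjusted p = 0.000165). This strand too was higher in ribo-minus libraries on the deposited scale. Opposite AAO2, an aldehyde oxidase gene, levels overlapped, with 4861, 5069 and 6067 in ribo-minus libraries and 7412, 5668 and 6072 in poly(A)+ libraries (1.14 ± 0.18, limma adjusted p = 0.00141). The strands opposite CYP96A12 (1.01 ± 0.30, limma adjusted p = 0.0277) and RPL5B (0.78 ± 0.23, limma adjusted p = 0.0262) were called higher, but each lost the call in 4 of the 6 fits that left out a library. These left out poly(A)+ replicate 1 or 2 or ribo-minus replicate 1 or 3 at CYP96A12 and poly(A)+ replicate 1 or 2 or ribo-minus replicate 2 or 3 at RPL5B (limma adjusted p up to 0.0977 at both). The 3 lower strands lay opposite AT1G03495 (−0.74), AT1G34110 (−0.80) and AT5G41780 (−0.89), and none kept its call in every fit with a library left out. The first lost it without any poly(A)+ library or without ribo-minus replicate 2 (limma adjusted p 0.0514 to 0.101), the second without poly(A)+ replicate 1 or 3 (0.0597 and 0.0586). The third lost it without poly(A)+ replicate 1 or 3 or ribo-minus replicate 1 or 2 (limma adjusted p 0.0504 to 0.0894).

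Of the 2102 tested strands, 1961 had a protein-coding main gene. Of the 15 highest loci, which all had relative log2 ratios of 2.94 or more, 11 had a protein-coding main gene and the others were the 3 U2 loci and the strand opposite ACT8. In 9 of these 11 the exons inside the window lay over 3000 nt from the 3′ end of the main gene's transcript, measured along the spliced RNA. All 15 stayed called in each fit with a library left out (largest limma adjusted p 0.000656) and with the replicate number as a block. They were picked as the largest called ratios without overlap, so these results are no separate support. Loci with all poly(A)+ values below the floor, named below, had to differ.

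AT1G67120 encodes a midasin-like protein, an ATPase of large ribosomal subunit assembly, from a transcript of 16593 nt. In the window 16110 nt from its 3′ end (chromosome 1, 25094249 to 25097248, minus strand), signal was 6048, 6286 and 6717 in ribo-minus libraries and 676, 425 and 357 in poly(A)+ libraries. All poly(A)+ values lay below the floor and all ribo-minus values well above it. The window thus passed the filter through its ribo-minus values alone, and its relative log2 ratio of 4.05, taken against the floor, is a lower bound. A second window, 7273.5 nt from the 3′ end, had 4583, 5968 and 5511 in ribo-minus libraries and 1461, 973 and 1124 in poly(A)+ libraries (3.57 ± 0.22, limma adjusted p = 6.21e-06).

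AT5G24350 (chromosome 5, 8302808 to 8305807, plus strand) had 8036, 7088 and 7802 in ribo-minus libraries, against 834, 799 and 769 in poly(A)+ libraries. Its window lay 5700.5 nt from the 3′ end of a transcript of 7577 nt, and here too all poly(A)+ values lay below the floor, so that the relative log2 ratio of 4.32 is a lower bound. The window of CNGC10, a cyclic nucleotide-gated channel gene, had 26643, 24282 and 29339 in ribo-minus libraries and 3928, 3342 and 2863 in poly(A)+ libraries (4.39 ± 0.16, limma adjusted p = 8.84e-07). CNGC10 itself was covered 434.5 nt from its 3′ end, but the same strand also holds exons of AT1G01320, 5949.5 nt from the 3′ end of a transcript of 6051 nt. The 2 genes cannot be told apart in that window.

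SDG25, a histone methyltransferase gene, had 4085, 5224 and 5920 in ribo-minus libraries and 845, 1611 and 1080 in poly(A)+ libraries (3.45 ± 0.25, 4869.5 nt from the 3′ end). GCT, a subunit of the Mediator kinase module, had 6320, 5895 and 5239 in ribo-minus libraries and 1523, 1303 and 1408 in poly(A)+ libraries (3.44 ± 0.19, 6259.5 nt from the 3′ end). TOPII, a DNA topoisomerase gene, had 3754, 2682 and 4111 in ribo-minus libraries and 778, 944 and 1642 in poly(A)+ libraries (2.94 ± 0.27, 4411 nt from the 3′ end). In these 3 the ribo-minus values exceeded the poly(A)+ values on the deposited scale, with no overlap.

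EMB3142 had 13120, 11142 and 10433 in ribo-minus libraries and 2943, 2613 and 2786 in poly(A)+ libraries (3.45 ± 0.17, 4165 nt from the 3′ end). PPC3, a phosphoenolpyruvate carboxylase gene, had 7642, 6344 and 7131 in ribo-minus libraries and 1912, 1783 and 1866 in poly(A)+ libraries (3.32 ± 0.18, 3047 nt from the 3′ end). The piezo-type channel gene AT2G48060 had 4378, 3503 and 3825 in ribo-minus libraries and 1340, 599 and 789 in poly(A)+ libraries (3.21 ± 0.22, 7177.5 nt from the 3′ end). The window of G3Pp3, a glycerol-3-phosphate permease gene, also holds the 5′ part of the receptor kinase gene HERK2, 3158 nt from its 3′ end. It had 4302, 3839 and 5100 in ribo-minus libraries and 676, 510 and 1217 in poly(A)+ libraries (3.43 ± 0.21). At the second window of AT1G67120, SDG25, TOPII, AT2G48060 and G3Pp3 at least 1 poly(A)+ value was below the floor and raised to it, which lowers the ratio. The largest limma adjusted p of the 15 loci was 6.14e-05.

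The position of a window in the transcript was examined over the 1101 tested strands that hold a single protein-coding gene, of which 225 (20.4%) were higher and 183 (16.6%) lower. Distance is the spliced length from the middle of the exons in the window to the transcript's 3′ end, known for 1100 of them. At most 500 nt from the 3′ end, 25 of 364 strands were higher and 105 lower, with a median of −0.24. From 500 to 1000 nt, 37 of 506 were higher and 74 lower, with a median of −0.07. The order turned beyond that distance, where higher calls outnumbered lower ones.

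Between 1000 and 1500 nt, 42 of 91 strands were higher and 4 lower (median 0.53), and between 1500 and 2000 nt 55 of 71 were higher and none lower (median 1.01). Between 2000 and 3000 nt, 45 of 47 were higher (median 1.50), and over 3000 nt all 21 were (median 2.56). Far strands often passed the filter through their ribo-minus values alone, and such strands had to differ. Over the strands above the floor in all 6 libraries, the medians were −0.28 (n = 289), −0.09 (n = 445), 0.45 (n = 76), 0.86 (n = 54), 1.53 (n = 32) and 2.35 (n = 8) with distance. In uninduced libraries the medians over all tested strands of each class, not only those above the floor in all 6, were −0.37, −0.15, 0.42, 1.10, 1.65 and 2.60 with distance.

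The levels behind this were unequal. The median log2 signal in the 3 poly(A)+ libraries was 14.12, 13.96 and 14.05 within 500 nt of the 3′ end and 10.24, 10.23 and 10.38 over 3000 nt from it. In the 3 ribo-minus libraries it was 12.42, 12.27 and 12.21 within 500 nt and 12.10, 11.39 and 12.01 over 3000 nt. The poly(A)+ signal was thus lower by more than 3 log2 units in the farthest class, and the ribo-minus signal by less than 1. These medians cover all tested strands of a class, and in the farthest class only 8 of 21 exceeded the floor in all 6 libraries. Strands that passed the filter through ribo-minus values alone have low poly(A)+ signal by selection, so the filter shapes this contrast. Across strands, Spearman's rho of the relative ratio with distance was 0.50 (n = 1100), and 0.54 over strands above the floor in all 6 libraries (n = 904). It was 0.04 with transcript length and −0.01 with the number of introns (n = 1101 each), and −0.12 with GC content. Strands share libraries and some windows overlap, so these are descriptions.

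**Figure D3:**
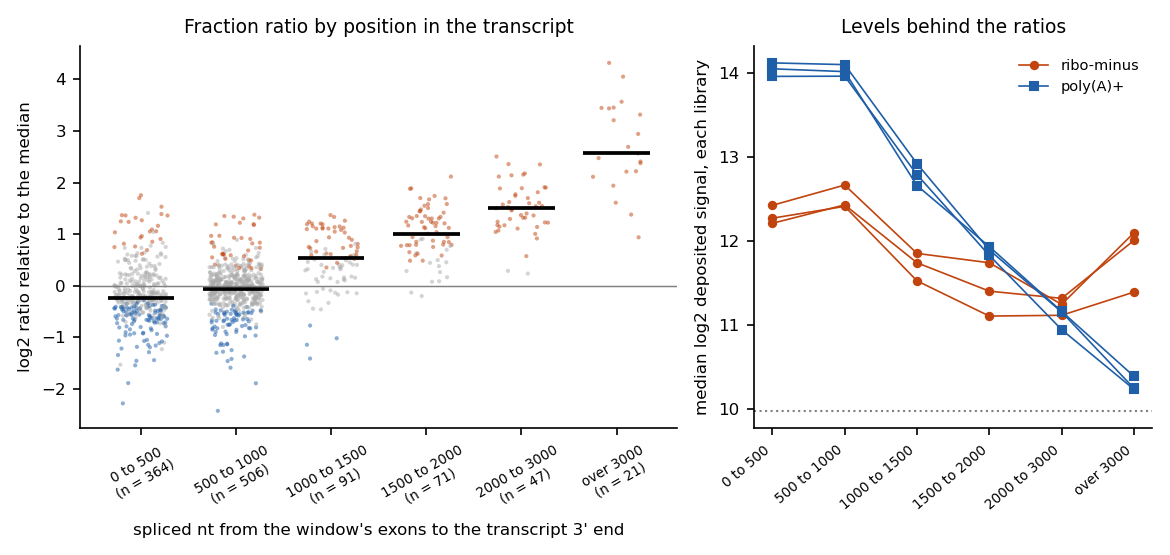
Left, relative log2 ratio of ribo-minus over poly(A)+ signal by spliced distance from the window's exons to the transcript 3′ end, 1 point per strand with a single protein-coding gene, bars at the class medians and colours for called strands (orange higher, blue lower). Right, median log2 deposited signal of each library over all tested strands of the same classes, with the floor dotted. The poly(A)+ medians drop from 14.12, 13.96 and 14.05 to 10.24, 10.23 and 10.38 across the classes. Far strands often passed the filter through their ribo-minus values alone.

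Within single genes the same order was seen. In 13 genes with tested windows over 1000 nt apart, the window farther from the 3′ end had the higher relative ratio in 13 of 13, with a median difference of 1.26. In the 8 genes with both windows above the floor in all 6 libraries it was higher in 8 of 8, with a median difference of 1.35. MET1, the maintenance DNA methyltransferase gene, is an example chosen after its values were seen. Its far window, 4441 nt from the 3′ end, had 2146, 1436 and 1887 in ribo-minus libraries and 837, 1454 and 1287 in poly(A)+ libraries (relative log2 ratio 1.94). Its near window, 524 nt from the 3′ end, had 2016, 3699 and 4563 in ribo-minus libraries and 13049, 13964 and 16293 in poly(A)+ libraries (−0.75, limma adjusted p = 0.0609). The poly(A)+ values differed between the windows far more than the ribo-minus values did. DEG7, a protease gene, had ratios of 2.12 in its far and 0.10 in its near window, SEC10 of the exocyst had 1.48 and 0.03, and CCT, another Mediator gene, had 1.54 and 0.28.

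The class of the window's midpoint was taken from genes on either strand, so it need not be that of the tested strand's own transcript. Over all tested strands 21.0% were higher and 16.0% lower. Of 206 strands whose window midpoint lies in a 5′ UTR, 81 (39.3%) were higher and 23 lower, with a median of 0.35. Of 609 with the midpoint in a 3′ UTR, 61 were higher and 110 lower, with a median of −0.12. Coding exons (74 higher and 43 lower of 323) and introns (37 and 10 of 118) lay between or beside these, and of 772 strands with a midpoint outside genes 170 were higher and 142 lower. Where the transcript's 3′ end lay inside the window (849 strands), 56 were higher and 179 lower, against 169 higher and 4 lower of 252 where it lay outside.

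The 15 lowest loci were all protein-coding, with relative log2 ratios of −1.46 or less and limma adjusted p of 0.00833 or less. In 12 of them the window's exons lay within 1000 nt of the main gene's 3′ end, and in the other 3 the strand also held the 3′ part of another gene. All 15 stayed called in every fit with a library left out (largest limma adjusted p 0.0471), but they too were picked as called strands without overlap.

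AT1G05120, a helicase and RING-finger gene (chromosome 1, 1474757 to 1477756, minus strand), was the lowest. It had 3139, 2764 and 2296 in ribo-minus libraries, against 83473, 66337 and 69581 in poly(A)+ libraries. The mean was 26.8-fold higher in poly(A)+ libraries and the groups lay far apart, with a relative log2 ratio of −3.35 ± 0.15 (limma adjusted p = 1.14e-06). The window also holds the pseudogene AT1G05135, 134.5 nt from its 3′ end, and the 2 cannot be told apart.

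KTF1, a transcription elongation factor-like gene of RNA-directed DNA methylation, had 1035, 943 and 905 in ribo-minus libraries, next to the floor, and 15205, 14261 and 13712 in poly(A)+ libraries (−2.43 ± 0.17). GR-RBP5, a glycine-rich RNA-binding protein gene, had 3660, 3252 and 4165 in ribo-minus libraries and 47241, 47861 and 51789 in poly(A)+ libraries (−2.34 ± 0.13). The glycine-rich protein gene AT4G21620, on the strand of LOL2, had 4859, 5853 and 4124 in ribo-minus libraries and 76499, 62276 and 65968 in poly(A)+ libraries (−2.40 ± 0.15). In these loci even the lowest poly(A)+ value was over 10 times the highest ribo-minus value.

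The elongation factor family gene AT5G25230 shares its strand with KNAT3, a homeobox gene covered 272 nt from its 3′ end. That strand had 2151, 1999 and 1489 in ribo-minus libraries and 25030, 25124 and 26973 in poly(A)+ libraries (−2.39 ± 0.18). AT5G06400, a pentatricopeptide repeat gene, shares its strand with FLA17, covered 410.5 nt from its 3′ end, and had 2710, 1660 and 2098 in ribo-minus libraries and 21909, 22298 and 26604 in poly(A)+ libraries (−2.08 ± 0.20). AT1G42430 had 1467, 1707 and 1341 in ribo-minus libraries and 18564, 22297 and 17089 in poly(A)+ libraries (−2.28 ± 0.18). CIP1, which encodes a protein that binds the light-signalling repressor COP1, had 6243, 3972 and 3981 in ribo-minus libraries and 57440, 48842 and 51753 in poly(A)+ libraries (−2.11 ± 0.18). The strands of GR-RBP5 and CIP1 also hold exons of AT1G74240 and AT5G41800, and that of PMH2, named next, those of AT3G22333.

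SNC1, an immune receptor gene of the resistance family, had 14924, 13983 and 13379 in ribo-minus libraries and 185396, 121022 and 115492 in poly(A)+ libraries (−1.89 ± 0.17). Its poly(A)+ replicate 1 was above the other 2, and all 3 were far above the ribo-minus values. The remaining loci were AT4G15030 (−1.89 ± 0.24), PMH2, a mitochondrial RNA helicase gene (−1.85 ± 0.14), Pnsl5, a chloroplast cyclophilin gene (−1.63 ± 0.11), NSP2, a nitrile specifier gene of glucosinolate breakdown (−1.59 ± 0.37), EIF3C, a translation initiation factor gene (−1.55 ± 0.12), and AT3G51325, a RING gene (−1.46 ± 0.25). NSP2 varied most, with 1294, 716 and 672 in ribo-minus libraries and 12903, 11045 and 4582 in poly(A)+ libraries, and had the largest limma adjusted p of the 15 (0.00833). It lost the call with the doubled floor (−0.68, limma adjusted p = 0.149), with all libraries of separated strands in the fit (limma adjusted p = 0.0891) and with summed strands (−0.82, limma adjusted p = 0.105). AT3G51325 lost it with summed strands (−0.70, limma adjusted p = 0.104).

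**Figure D4:**
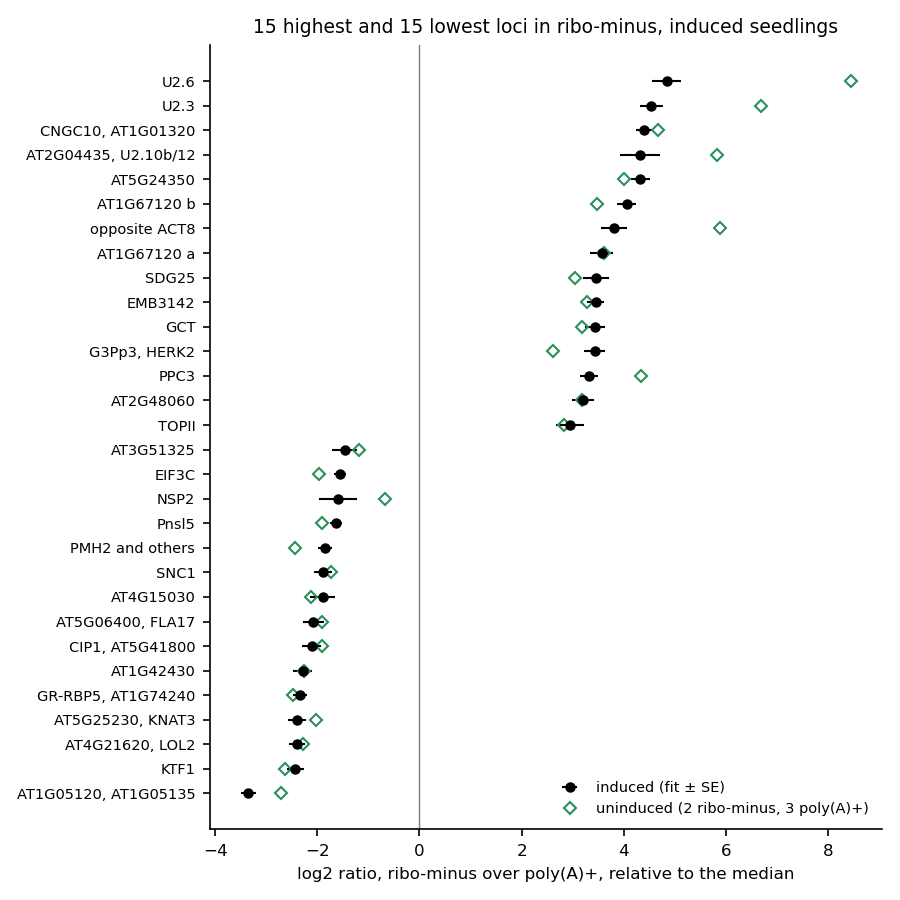
Relative log2 ratio of ribo-minus over poly(A)+ signal at the 15 highest and 15 lowest loci, as filled points with the SE of the fit in induced seedlings (n = 3 per fraction) and open diamonds for uninduced seedlings (2 ribo-minus and 3 poly(A)+ libraries). AT1G67120 b is the window 16110 nt from the 3′ end and AT1G67120 a the one 7273.5 nt from it; induced and uninduced ratios lie on the same side of 0 at all 30 loci.

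Lists of genes by function were then counted. Of 74 transporter strands, 25 (33.8%) were higher, 21 of them with all ribo-minus values above the floor, and 4 (5.41%) were lower, with a median of 0.17, against 21.0% higher, 16.0% lower and a median of 0 over all strands. Of the 25, 15 were among the 28 strands over 1000 nt from the 3′ end. The ABC transporter gene ABCG42 had 6849, 6471 and 4207 in ribo-minus libraries and 2036, 1992 and 1867 in poly(A)+ libraries (2.94 ± 0.23, limma adjusted p = 2.35e-05). Its strand also holds exons of ABCG30, 330.5 nt from the 3′ end of that transcript, and the 2 genes cannot be told apart. TPC1, the vacuolar two-pore channel gene, had 31277, 31012 and 30809 in ribo-minus libraries and 15338, 16136 and 16350 in poly(A)+ libraries (2.36 ± 0.10, limma adjusted p = 9.84e-07). TPC1 varied little between replicates and was higher in ribo-minus libraries in all 3.

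Of 147 kinase strands, 29 (19.7%) were higher and 26 (17.7%) lower (median −0.08), close to the shares over all strands, and 19 of the 29 were among the 40 strands over 1000 nt from the 3′ end. AT1G07650, a leucine-rich repeat receptor kinase gene, had 12920, 11010 and 10554 in ribo-minus libraries and 6398, 6817 and 6313 in poly(A)+ libraries (2.21 ± 0.14, limma adjusted p = 7.36e-06). SUB, a receptor-like kinase gene of organ shape (2.35 ± 0.29), NET1C, a kinase-interacting actin-binding protein gene (2.41 ± 0.29), and AT1G67720 (1.89 ± 0.20) were higher as well. Of 39 strands of chromatin and DNA genes, 8 (20.5%) were higher and 10 (25.6%) lower (median −0.16), against 21.0% and 16.0% over all strands. All 8 lay over 1000 nt from the 3′ end, as 14 of the 39 did. DML1, a DNA demethylase gene, was among them with 2273, 2188 and 4131 in ribo-minus libraries and 1034, 852 and 1337 in poly(A)+ libraries (2.69 ± 0.28, limma adjusted p = 0.000137).

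Of 33 strands of splicing and RNA-binding genes, 4 (12.1%) were higher and 11 (33.3%) lower (median −0.10), against 21.0% and 16.0% over all strands. SR34a, a serine/arginine-rich splicing factor gene, had 9522, 10745 and 11765 in ribo-minus libraries and 63552, 57355 and 67469 in poly(A)+ libraries (−1.16 ± 0.12, limma adjusted p = 0.000108). AT5G15270, a KH-domain gene on a strand shared with AT5G15265, was higher (1.03 ± 0.16, limma adjusted p = 0.0011), and AT2G44200 was lower (−1.42 ± 0.37, limma adjusted p = 0.0144), a call lost without poly(A)+ replicate 2 or 3 (limma adjusted p up to 0.0589). Of 92 transcription factor strands, 14 (15.2%) were higher and 17 (18.5%) lower (median −0.11). MGP, a zinc finger gene of root patterning, was higher (1.72 ± 0.21, limma adjusted p = 0.000316), on a strand that also holds AT1G03830. MGP was covered 463 nt and AT1G03830 3271 nt from the 3′ end, and they cannot be told apart. The strand of ARF9, an auxin response factor gene, and of CSLG3 was lower (−1.17 ± 0.28, limma adjusted p = 0.0108).

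Of 59 F-box and ubiquitin strands, 10 were higher and 10 lower (16.9% each, median −0.02), against 21.0% and 16.0% over all strands. The lower ones included KEG, a ubiquitin ligase gene of abscisic acid signalling (−1.37 ± 0.19, limma adjusted p = 0.000742), and AT2G35330 on a strand shared with MEE29 (−1.29 ± 0.17, limma adjusted p = 0.000513). Of 13 disease resistance strands, 5 (38.5%) were higher and 2 (15.4%) lower (median 0.10). The higher ones included AT5G18360 and AT5G40910, and 4 of the 5 were among the 5 strands over 1000 nt from the 3′ end. The lower ones were SNC1 and RLM3 (−0.74 ± 0.15, limma adjusted p = 0.00532). Of 28 cell wall and lipid transfer strands, 5 (17.9%) were higher and 3 (10.7%) lower, and of 24 stress strands 4 (16.7%) were higher and 3 (12.5%) lower. GRV2, a DnaJ-domain gene whose strand also holds AGL41, was among those lower (−0.62 ± 0.13, limma adjusted p = 0.00486). Among 13 auxin strands 1 (7.69%) was higher, DFL1 of the GH3 family (0.84 ± 0.15, limma adjusted p = 0.00277), and 1 (7.69%), ARF9, was lower.

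Clock, light and flowering genes had 7 tested strands, none higher and 2 (28.6%) lower, against 21.0% higher and 16.0% lower over all strands. These were SVP, a MADS-box repressor of flowering (−0.66 ± 0.10, limma adjusted p = 0.00102), and ELF5 (−0.79 ± 0.15, limma adjusted p = 0.00345). Ribosomal proteins had 9, none higher and 2 (22.2%) lower (median −0.36), namely AT3G18240 (−0.56 ± 0.19, limma adjusted p = 0.0416) and AT4G02230 (−0.41 ± 0.12, limma adjusted p = 0.0236). Both ribosomal calls were lost when any poly(A)+ library was left out (limma adjusted p up to 0.177 and 0.0956). Histones, whose transcripts are polyadenylated in plants, had 3 strands and no call, and light-harvesting and photosystem genes had no tested strand.

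The list of exosome and RNA decay genes had 3 tested strands. CER7, a core exosome subunit gene (−0.07, limma adjusted p = 0.772), and XRN3, a nuclear exoribonuclease gene (−0.14, limma adjusted p = 0.373), were not called. UVH3, which the list took in by the word exonuclease in its description and which is a DNA repair endonuclease gene, was higher, with 2424, 2153 and 2344 in ribo-minus libraries and 1140, 983 and 1391 in poly(A)+ libraries (2.38 ± 0.21, limma adjusted p = 4.46e-05). Over all protein-coding main genes, 374 of 1961 strands were higher and 323 lower. Windows over 1000 nt from the 3′ end were 456 of the 1961 and held 235 of the 374 higher and 35 of the 323 lower calls.

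The balance of both strands was taken after the floor as the log2 ratio of the strand without genes to the strand with genes, compared between fractions in windows with genes on 1 strand and the other strand tested. Where both strands exceeded the floor in all 6 libraries (15 windows), the balance was further toward the gene-free strand in ribo-minus libraries in 8 and further toward the gene strand in 2, with a median difference of 0.79. Over all 69 windows, 54 (78.3%) were called higher after the floor and 4 (5.80%) lower (84.1% either way), with a median of 1.10. In 45 of the 54 the gene-free strand was at or below the floor in a ribo-minus library, and no direction is read from those. In 3 of the 54 the deposited means go the other way. At AT1G10890, for example, the gene-free strand had 4.20% of the gene strand's mean signal in ribo-minus libraries and 6.82% in poly(A)+ libraries, and at THA1 it had 2.55% in ribo-minus libraries and 2.88% in poly(A)+ libraries. Without ribo-minus replicate 1 the higher count fell to 25, without poly(A)+ replicate 2 to 30 and without poly(A)+ replicate 3 to 31; without poly(A)+ replicate 1 the lower count was 2.

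At ACT8 the gene-free strand had 34.0% of the gene strand's mean signal in ribo-minus libraries and 3.23% in poly(A)+ libraries. The gene strand had 120888, 86047 and 77981 in ribo-minus libraries and 202624, 178500 and 158789 in poly(A)+ libraries. The balance differed by 3.36 ± 0.34 on the log2 scale (limma adjusted p = 5.21e-18). In this fit limma drew the SE and p mostly from variance shared over all 69 windows, some of which overlap. They do not measure the spread of the 6 libraries at ACT8, and the same holds for the other balance calls. The next differences, at CIP1 (2.64), cICDH (2.17), AT4G20350 (2.13) and CYP59 (2.11), had gene-free strands below the floor in at least 2 ribo-minus libraries, so that the floor set these values. Of the 4 windows that went the other way, AT1G34110, a receptor-like kinase gene, had a gene-free strand at 80.8% of the gene strand in ribo-minus libraries and 300% in poly(A)+ libraries (−1.90). In its ribo-minus replicate 2 the gene strand (631) and the gene-free strand (828) both lay below the floor. AAO2 followed with 25.3% in ribo-minus libraries and 75.6% in poly(A)+ libraries (−1.57), then AT1G03495 (−1.13) and GLR5 (−0.77). At GLR5 the gene-free strand lay below the floor in ribo-minus replicate 3 (758). At AAO2 the gene-free strand was itself higher in relative signal, and the gene strand had a still higher ratio.

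Whole-library measures did not separate the fractions at the floor. The number of strands above it was 2462, 1770 and 1833 in ribo-minus libraries (mean 2022 ± 383, SD, n = 3) and 2218, 2082 and 2163 in poly(A)+ libraries (2154 ± 68.4, SD, n = 3), with a two-sided exact permutation p of 0.5. The smallest p that 3 against 3 allow is 0.1. Ribo-minus replicate 1 stood above both other ribo-minus libraries and every poly(A)+ library. Above a floor of double height, the counts were 1632, 1448 and 1480 in ribo-minus libraries and 1865, 1794 and 1873 in poly(A)+ libraries, which did not overlap (exact permutation p = 0.1). Of the 1122 windows with genes on 1 strand, the other strand exceeded the floor in 23.5%, 2.50% and 2.23% in ribo-minus libraries and in 10.9%, 8.29% and 10.2% in poly(A)+ libraries (exact permutation p = 1). Again replicate 1 of ribo-minus, whose smallest value above 0 was 776, stood apart, and the difference was −0.386 percentage points with it and −7.44 without it. The part of detection limits in these measures was not tested.

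Few strands were called for a difference in the fraction ratio between induced and uninduced seedlings, which does not show that the ratios were alike. That difference was called at 3 of the 15 highest loci, which were chosen for extreme induced ratios, and at none of the 15 lowest. All 15 highest loci had uninduced relative ratios of 2.60 or more and all 15 lowest had ratios below −0.67, from 2 uninduced ribo-minus libraries with separated strands. A test of the difference (induced minus uninduced ratio, limma over 11 libraries) called 1 of 2334 strands higher (0.0428%) and 14 lower (0.600%), 0.643% in all, and 0 and 6 with the replicate number as a block. At 3 of the 15, the strands of AT4G06145 and opposite AT5G41780 and AT1G70450, both fractions lay at or below the floor in 1 condition, so that no ratio was measured there. The floor also largely set the uninduced ratio of AT2G05280 and the induced ratio of MPK11. In whole seedlings, fewer cells of a type and less RNA per cell cannot be told apart. Leaving out uninduced ribo-minus replicate 2 left 1 lower and no higher call; a single uninduced ribo-minus library then remained, assumed to vary like the other groups. Leaving out any other library left 6 to 10 lower and 0 to 9 higher calls, the 9 without uninduced ribo-minus replicate 3.

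The largest difference was at U2.6, where the relative ratio was 4.75 in induced and 8.46 in uninduced seedlings over the strands of this fit, a difference of −3.70 ± 0.47 (limma adjusted p = 0.00403, and 0.0259 with the block). Ribo-minus signal was 219852 and 227472 in the 2 uninduced libraries, within the range of the induced ones. Poly(A)+ signal was 16032, 16328 and 37167 in induced and 1026, 2269 and 1332 in uninduced libraries. The ribo-minus levels thus overlapped between conditions, and the poly(A)+ levels did not. U2.3 had the same order, with poly(A)+ signal of 69997, 74191 and 128506 in induced and 12307, 23194 and 17267 in uninduced libraries (−2.23 ± 0.37, limma adjusted p = 0.0139, and 0.0494 with the block).

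AT3G28170, an uncharacterized protein-coding gene, was the only 1 of the 15 that stayed called in all 11 fits with a library left out; the other 14 lost the call at least without uninduced ribo-minus replicate 2. It had 2957, 1971 and 2672 in induced ribo-minus and 7546, 5421 and 6322 in induced poly(A)+ libraries, against 2186 and 3558 in uninduced ribo-minus and 990, 515 and 899 in uninduced poly(A)+ libraries. Its relative ratio was typical of all strands after induction (−0.04) and high without it (2.67), where all poly(A)+ values lay below the floor. The strand opposite ACT8 differed by −2.16 ± 0.35 (limma adjusted p = 0.0139) and AT3G03435 by −1.83 ± 0.31 (limma adjusted p = 0.016), but both lost the call with the block (limma adjusted p = 0.146 and 0.147). In both the poly(A)+ values were below the floor in all 3 uninduced libraries and above it in all 3 induced ones.

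**Figure D5:**
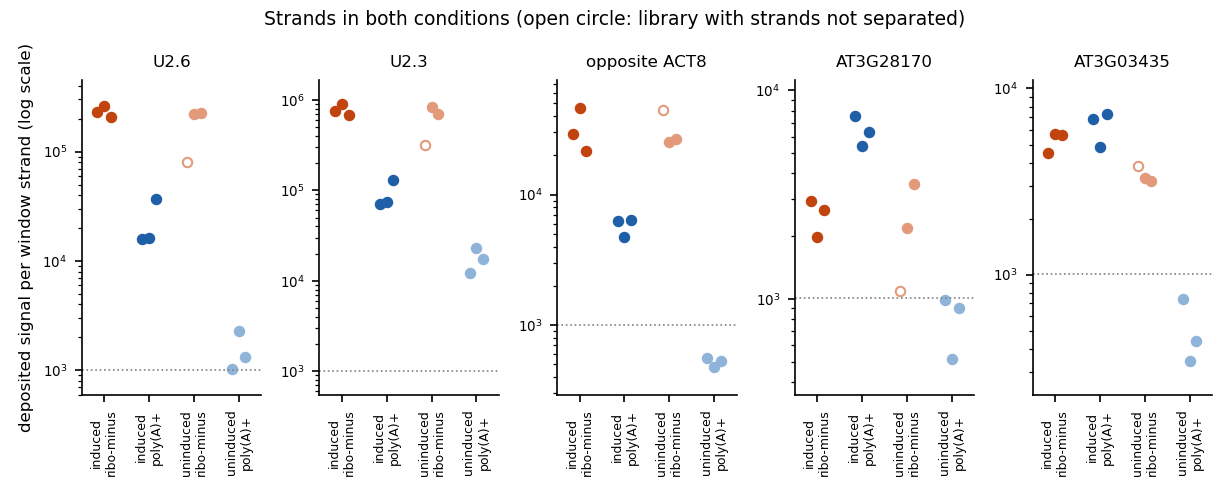
Deposited signal (log scale) in each library at 5 strands, in the order induced ribo-minus, induced poly(A)+, uninduced ribo-minus and uninduced poly(A)+, with the floor dotted where in range and the library whose strands are not separated as an open circle. Ribo-minus levels differ less between conditions than poly(A)+ levels, which are higher in induced than in uninduced libraries at every strand shown.

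Strands next to the filter's threshold had values close to the floor. Just inside lay AT3G51340, with 1276, 256 and 323 in ribo-minus libraries and 1225, 600 and 1007 in poly(A)+ libraries. Just outside lay AT2G02061, with 1942, 206 and 465 in ribo-minus libraries and 811, 1010 and 1003 in poly(A)+ libraries.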

How the data were processed

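The labels give 12 stranded libraries from the RRP41-iRNAi line, and poly(A)+ and ribo-minus libraries with the same replicate number come from the same total RNA. Per the submitters' processing notes, CASAVA 1.8.2, TopHat2 2.0.9, Cufflinks 2.1.1, Cuffdiff and the TAIR10 build were used. The deposited signal per window and strand, in whole numbers, has no stated derivation or scaling. It is not a read count, so no counting interval is given, and sums of it are not amounts of RNA.

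From the signal, columns 7 and 8 were read as plus and minus strand, values were raised to a floor of 1005, and strands above it in at least 3 libraries were tested on the log2 scale with limma 3.58.1 (lmFit, eBayes with trend) in R 4.3.3, after shifting ribo-minus values by the median ratio. Adjustment was by Benjamini-Hochberg over all tested strands. The strand balance and the induced minus uninduced difference were fitted the same way. Library measures used two-sided exact permutation tests. Permutation tests ran in numpy 2.4.6 under Python 3.11.15 and Spearman correlations in scipy 1.17.1, with tables in pandas 2.3.3 and plots in matplotlib 3.10.9. Windows were annotated with RefSeq on TAIR10.1. The main fit was tested on simulated data with a common SD for all strands. The fits of the strand balance and of induced minus uninduced were not tested in this way.

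Deviations from group means correlated at 0.184, 0.102 and 0.332 between same-numbered libraries and at most 0.063 otherwise, so the numbers pair the samples. The main fits compared group means and did not use this pairing, which entered only as the replicate block among the alternatives. Left out were 3 windows (enhancer_001796, enhancer_001797 and enhancer_001798) that took a large share of the induced ribo-minus signal, and, from strand comparisons, the library with equal strands. Named were the 15 highest and 15 lowest loci among called strands without overlap, the largest balance and interaction calls, all small RNA strands and up to 4 called genes per list. Members and lists were chosen with earlier results of these data known. Gene-free strands above the floor in all ribo-minus libraries or called lower, within-gene examples and the count of higher calls above the floor were chosen after values were seen.

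Alternatives were the replicate block, no centring, a size factor per library, pseudocounts of 1 and 100 without the floor, a floor of 2010, no filter, a filter on all 6 libraries, no trend, all libraries with separated strands, summed strands, the 3 windows added and each library left out.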

Additional observations from a re-analysis of the deposited data

Results flagged for a closer look

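The ratio between the fractions differed between induced and uninduced seedlings at 15 strands by the test of the difference itself (limma over 11 libraries, adjusted p under 0.05), given here as induced minus uninduced on the log2 scale. U2.6 differed by −3.70 in both of its overlapping windows, and U2.3 by −2.23. AT3G28170 differed by −2.71. Strands without an annotated gene differed by −2.16 and −2.11 in the 2 overlapping windows opposite ACT8, and by −1.33 opposite AT4G18030. Opposite AT5G41780 the fit gave −2.17, with no ratio measured in uninduced seedlings. AT2G05280, an uncharacterized gene, differed by −1.96. Its uninduced values were 391, 381 and 614 in poly(A)+ libraries and 1257 and 0 in ribo-minus libraries. All but the 1257 lay below the floor, which largely set the uninduced ratio. The snoRNA window of AT3G03435 differed by −1.83. Smaller differences were found at AT3G07730 (−1.28), MPK11, a MAP kinase gene (−1.15), and the protein kinase gene AT5G63370 (−0.75). MPK11 had 1035, 833 and 1113 in induced ribo-minus libraries and 1094, 1051 and 1213 in induced poly(A)+ libraries. These lay near or below the floor, which largely set its induced ratio. At the noncoding gene AT4G06145 the fit gave −1.32, again with no ratio measured in uninduced seedlings. The strand opposite AT1G70450 was the only 1 to differ upward (1.61); its 3 ribo-minus values lay below the floor in induced seedlings, as did its poly(A)+ values, while the uninduced poly(A)+ values were 3658, 2518 and 2475. No ratio was thus measured there in induced seedlings, and 1.61 is no measured difference.

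At the strand opposite AT5G41780 signal was 1122, 537 and 982 in induced ribo-minus and 5557, 3592 and 6593 in induced poly(A)+ libraries, while all 3 uninduced poly(A)+ libraries and both uninduced ribo-minus libraries with separated strands were listed at 0. At AT4G06145 both fractions likewise lay at or below the floor in uninduced seedlings. At these 2 strands the uninduced ratio is that of the floor to itself, so −2.17 and −1.32 are no measured differences. With the replicate number as a block, U2.6 in both windows, AT3G28170, U2.3, the strand opposite AT5G41780 and AT2G05280 kept the call and the other 9 strands did not.

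The 3 windows left out of all comparisons carried on average 28.3% of the signal in the induced ribo-minus libraries. Their share was 0.393% to 2.70% in induced poly(A)+ libraries and 0.17% to 0.247% in the uninduced libraries of both fractions.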

How the results depend on the processing

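Of 998 values for 57 single strands under the alternatives, 909 kept their direction and side of the threshold, 40 lost the call, 21 gained it and 28 changed sign. Without centring, 54 strands were higher and 1717 lower, and without a filter 1518 and 1479 of 3688, where strands at the floor in both fractions move the median. The separate fit of strands above the floor in all 6 libraries called 291 higher. Counting only higher calls of the main fit with all ribo-minus values above the floor, chosen after seeing the data, gave 284. With the replicate number as a block 518 were higher and 450 lower, and the block gave 49 and 4 windows for the strand balance and 0 and 6 strands for induced minus uninduced. Among the 57 strands the block turned the call at SPPL4 and MIR408, and in the strand balance it ended 5, at THA1, AT4G18030, MDAR1 and 2 windows of AT4G39520 (limma adjusted p 0.0575 to 0.0741). Leaving out 1 library gave 314 to 413 higher and 189 to 375 lower strands. A pseudocount of 1 gave 300 and 266, and a size factor per library 585 and 332.

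The strand balance had 10 windows higher and 1 lower with a floor of double height, 8 and 2 with both strands above the floor in all 6 libraries, and 25 to 44 higher and 2 to 4 lower with 1 library left out. Induced minus uninduced had 0 higher and 7 lower with the library whose strands were equal, 1 and 15 without centring, and 0 to 9 higher and 1 to 10 lower with 1 library left out. The difference in the share of windows with the other strand above the floor lay between −7.44 and 3.21 percentage points with 1 library left out, and the difference in strands above the floor between −353 and −6.83.

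Reversals without centring were SPPL4 (−1.08), LBD22 (−0.87), AT3G03435 (−0.25), the strands opposite AAO2 (−0.26), CYP96A12 (−0.39) and RPL5B (−0.62), AT4G24420 (−1.30) and EIF3B-2 (−0.076). Without a filter they were SPPL4 (−0.72), LBD22 (−0.50), AT4G24420 (−0.93) and the strands opposite CYP96A12 (−0.018) and RPL5B (−0.25). With summed strands they were MIR5018 (−0.80), LBD22 (−0.19) and AT3G03435 (−0.22), and with the doubled floor the strands opposite AT1G34110 (0.13) and AT5G41780 (0.087) and AT5G41620 (0.74). AT4G24420 turned with pseudocounts of 1 (−0.11) and 100 (−0.042), and AT4G30670 with a size factor (0.0059) and above the floor in all 6 libraries (0.016). With 1 library left out, AT2G47010 lay between −0.31 and 0.066, AT4G24420 between −0.14 and 0.33 and AT4G30670 between −0.20 and 0.059. The cause was not tested. Read numbers are unknown, and ratios of strands at or below the floor are set by the floor.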
